A study of Mus musculus with 6 samples.

Results

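The genes described here are 10 markers of macrophages and other leukocytes, Ptprc, Cd68, Adgre1, Csf1r, C1qa, C1qb, C1qc, Tyrobp, Lyz2 and Cd74, measured in RNA of mouse granulosa cells. They were taken by gene name from tables that hold 54551 features, and all 10 were found, each under 1 gene ID. The 6 libraries came from ovaries of C57BL/6 mice on postnatal day 21, primed with 5 IU of PMSG for 48 h to grow follicles and then given 5 IU of hCG, a stand-in for the ovulatory luteinizing hormone surge, 6 h before collection. The groups were 3 libraries labelled wild type and 3 labelled Gm12840-/-, called knockout below. Both groups shared the strain, the age and the hormone treatment, but the labels name neither the deleted part of Gm12840 nor the animals behind each library, so the spread behind each p-value is that of these libraries and may be technical.

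Macrophages are resident phagocytes of the ovary, found in the stroma, the theca and the corpus luteum, and leukocytes enter the follicle wall around ovulation. They are held outside the follicle's granulosa layer by a basement membrane until the follicle ruptures. Their identity rests on a shared set of genes. A receptor tyrosine kinase, CSF1R, gives the survival signal, the adaptor TYROBP (DAP12) carries signals from activating receptors, and the 3 chains of C1q, the recognition molecule of the classical complement pathway, are made mostly by macrophages. Granulosa cells themselves are epithelial-like follicle cells that are not expected to make the pan-leukocyte phosphatase CD45, the product of Ptprc.

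The recovered depth was 16392098 to 19465847 reads per library. Gm12840 held 28 reads in the wild-type libraries and 26 in the knockout libraries, at 0.919 ± 0.792 and 0.829 ± 0.546 FPKM (SD, n = 3 each, two-sided exact permutation p = 0.9 where 0.1 is the smallest possible). The targeted gene was not detectably lower in the libraries labelled knockout at this depth, and each direction below rests on the labels. Markers of granulosa cells were abundant in every library, with Inha, the inhibin alpha subunit, at 3973 to 10808 FPKM, Amh, anti-Müllerian hormone, at 181 to 779 FPKM and the transcription factor Foxl2 at 26.2 to 48.5 FPKM. Libraries differed along 1 main axis, which held 83.3% of the variance and set wild type 1, wild type 2 and knockout 3 against the other three.

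The 3 C1q genes lie side by side on the minus strand of chromosome 4 (mm10), C1qb from 136880129 to 136886187, C1qc from 136889804 to 136893065 and C1qa from 136895917 to 136898803. Gaps of 3616 and 2851 bp separate them, with no other annotated feature between. Gm12840 is on the same chromosome, 19179205 bp from C1qb. Promoter windows were matched for 5 of the 10 genes, C1qb, C1qc, Cd68, Lyz2 and Ptprc, from RefSeq on GRCm38.p6, each from 250 bases before the transcript start to 50 after it. They were searched on both strands for GAGGAA, the core letters bound by PU.1, the macrophage transcription factor encoded by Spi1. The windows of the complement chains C1qb (chr4:136886151-136886450) and C1qc (chr4:136892865-136893164), which moved together across libraries, and of Cd68 (chr11:69666121-69666420), which varied little, are shown 5′ to 3′ along the minus strand, with the matches in capitals.
C1qb: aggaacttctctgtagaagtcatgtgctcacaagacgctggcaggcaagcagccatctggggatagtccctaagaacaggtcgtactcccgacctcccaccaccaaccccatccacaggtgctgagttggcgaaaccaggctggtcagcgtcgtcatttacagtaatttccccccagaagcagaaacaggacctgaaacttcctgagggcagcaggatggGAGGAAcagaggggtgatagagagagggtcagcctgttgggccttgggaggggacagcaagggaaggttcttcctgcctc
C1qc: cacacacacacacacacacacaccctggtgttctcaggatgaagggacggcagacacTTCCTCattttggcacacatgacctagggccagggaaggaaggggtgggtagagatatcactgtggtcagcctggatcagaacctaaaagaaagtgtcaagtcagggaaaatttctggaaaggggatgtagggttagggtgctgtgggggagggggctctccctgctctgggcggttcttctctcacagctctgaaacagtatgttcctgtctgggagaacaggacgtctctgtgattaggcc
Cd68: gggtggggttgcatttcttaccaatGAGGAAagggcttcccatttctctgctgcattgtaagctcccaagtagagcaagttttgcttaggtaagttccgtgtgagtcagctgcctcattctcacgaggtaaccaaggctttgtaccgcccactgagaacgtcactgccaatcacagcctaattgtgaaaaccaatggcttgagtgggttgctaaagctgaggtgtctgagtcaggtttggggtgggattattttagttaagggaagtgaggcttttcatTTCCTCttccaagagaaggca
The match of C1qb begins at position -30 from the start, that of C1qc at -193 on the opposite strand, and those of Cd68 at -225 and, on the opposite strand, at 30. The window of Ptprc holds 1 match and that of Lyz2 none. Of all 32851 windows, 28.3% hold these letters, and a match is a description of the window, not a measured site.

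None of the markers passed the test for a difference between the labelled genotypes. Of the 10, limma called 0 at an adjusted p under 0.05, against 0% of the 12495 genes tested past the filter and 0% of 29484 genes in the fit without it. At an unadjusted p under 0.05 the count was 0 of 10, where limma gave 91 genes (0.728%) past the filter and 476 (1.61%) without it, while limma-voom on recovered reads called 0 genes as well and gave 73 (0.584%) at the same unadjusted level. Wild-type and knockout ranges lay apart in 0 of the 10 markers, against 3.53% of genes past the filter and 4.31% without it. Of the 8 markers past the filter, Ptprc and Adgre1 being too low, 4 were positive and 4 negative, with a median log2 fold change of -0.02 against -0.04 over all genes. Fold changes are of log2(FPKM + 1), where FPKM is fragments per kilobase of gene, scaled to library depth by the authors, and understate changes of low genes. Summed over the 10 markers, the level was 87.5 ± 26.5 FPKM in the wild-type and 86.1 ± 29.4 FPKM in the knockout libraries (SD, n = 3 each). In RNA of whole samples, fewer cells of a type and less RNA per cell cannot be told apart.

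**Figure D1:**
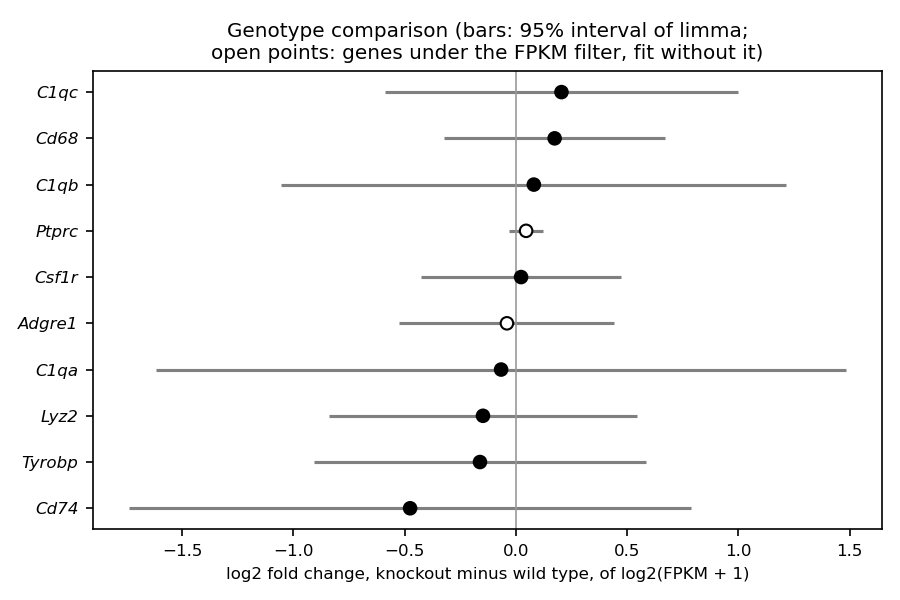
Log2 fold change of each marker, knockout minus wild type, on the log2(FPKM + 1) scale (x axis), with the 95% interval of limma as bars. All 10 intervals include 0, and those of C1qa and Cd74 are the widest of the 10.

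The receptors that define leukocytes and macrophages were the lowest of the markers in FPKM. Ptprc, on chromosome 1 from 138062861 to 138175708, stood at 0.0110, 0.0162 and 0.0575 FPKM in wild type 1 to 3 and at 0.0701, 0.0747 and 0.0390 FPKM in knockout 1 to 3. These values rest on 3, 5, 23, 24, 25 and 11 reads over an exon length of 18313 nt. Wild type 1 and 2 were the lowest libraries, and knockout 3 lay below wild type 3, so the groups overlapped. The log2 fold change of Ptprc was 0.05 with a 95% interval of -0.03 to 0.12 (adjusted p = 0.958 by limma without a filter). At so low a level the added constant of 1 hides most of a ratio. On recovered reads limma-voom gave 1.27 ± 0.692 (SE, adjusted p = 0.957), and 0.34 was found with a constant of 0.1.

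Adgre1, an adhesion G protein-coupled receptor widely used to mark mouse macrophages, lies on chromosome 17 from 57358686 to 57483529. It stood at 0.291, 0.438 and 0.847 FPKM in wild type 1 to 3 and at 0.659, 0.556 and 0.220 FPKM in knockout 1 to 3, from 14, 24, 60, 40, 33 and 11 reads. Wild type 3 was the highest and knockout 3 the lowest, so each group spanned most of the range. Its log2 fold change was -0.04 with an interval of -0.52 to 0.44 (adjusted p = 0.976 by limma without a filter).

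Csf1r, the receptor for CSF1 and IL-34, lies on chromosome 18 from 61105572 to 61132149. It was the steadiest of the 10, at 0.827, 1.14 and 1.01 FPKM in wild type 1 to 3 and 1.24, 1.01 and 0.838 FPKM in knockout 1 to 3. The highest library was 1.49 times the lowest, and their Poisson intervals overlapped. Its log2 fold change was 0.02 with an interval of -0.43 to 0.47 (adjusted p = 0.994 by limma). Hmgxb3 overlaps Csf1r on the opposite strand and held 2264 reads against 528 for Csf1r, and the counting is not stated to use strand, so reads in the shared stretch cannot be assigned with certainty.

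C1qb and C1qa were the most abundant markers after Lyz2. The highest library was 5.74 times the lowest for C1qa, 3.23 times for C1qb and 2.3 times for C1qc, beside 6.77 times for Ptprc and 5.31 times for Cd74. C1qa stood at 19.5, 20.5 and 7.31 FPKM in wild type 1 to 3 and at 15.4, 5.26 and 30.2 FPKM in knockout 1 to 3. The lowest and the highest value were both in knockout libraries, on 100 and 483 reads. C1qb stood at 20.4, 17.8 and 9.43 FPKM in wild type 1 to 3 and at 18.9, 8.14 and 26.3 FPKM in knockout 1 to 3. C1qc stood at 6.63, 5.70 and 3.44 FPKM in wild type 1 to 3 and at 7.23, 3.74 and 7.91 FPKM in knockout 1 to 3. All 3 chains were low in wild type 3 and knockout 2 and highest in knockout 3, and in each group the intervals of the highest and lowest library lay apart. The log2 fold changes were -0.07 for C1qa (95% interval -1.62 to 1.48), 0.08 for C1qb (-1.05 to 1.22) and 0.20 for C1qc (-0.59 to 1.00), none called by limma (adjusted p = 0.994, 0.993 and 0.993). The interval of C1qa thus leaves a 2-fold change in either direction within its bounds.

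Lyz2, a lysozyme of macrophages and neutrophils, lies on chromosome 10 from 117277331 to 117282321 and was the most abundant marker. It stood at 31.2, 39.8 and 22.3 FPKM in wild type 1 to 3 and at 33.2, 22.8 and 26.6 FPKM in knockout 1 to 3. The lowest library was wild type 3 and the highest wild type 2, and all knockout values lay between them. Its near-identical neighbour Lyz1 held 30 reads in all against 4042 for Lyz2, and reads that fit both cannot be told apart. The log2 fold change of Lyz2 was -0.15 (-0.84 to 0.55, adjusted p = 0.993 by limma).

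Cd68, a glycoprotein of the late endosome and lysosome, was nearly level. It stood at 5.63, 4.42 and 5.43 FPKM in wild type 1 to 3 and at 7.27, 5.40 and 5.27 FPKM in knockout 1 to 3. Knockout 1 stood above the rest, and the other 5 libraries lay within 4.42 to 5.63 FPKM. Its log2 fold change was 0.17 (-0.32 to 0.67, adjusted p = 0.993 by limma).

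Tyrobp lies on chromosome 7 from 30413760 to 30417585. It stood at 9.09, 5.85 and 4.12 FPKM in wild type 1 to 3 and at 7.21, 4.43 and 4.67 FPKM in knockout 1 to 3. Wild type 1 and knockout 1 were the highest, and the low values of both groups were close to each other. Its log2 fold change was -0.16 (-0.91 to 0.59, adjusted p = 0.993 by limma).

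Cd74, the invariant chain that guides MHC class II molecules to the endosome, lies on chromosome 18 from 60803848 to 60812646. It stood at 9.89, 6.25 and 2.96 FPKM in wild type 1 to 3 and at 3.41, 1.86 and 8.20 FPKM in knockout 1 to 3. Knockout 3 was high beside the other knockout libraries, and wild type 3 low beside the other wild-type libraries. The log2 fold change was -0.48 (-1.74 to 0.79, adjusted p = 0.993 by limma). Without wild type 3 and knockout 3, a setting chosen after seeing the values, it was -1.32 (adjusted p = 0.0227 by limma), in a fit that called 27.6% of all genes tested. It was -0.07 with each library’s slope on gene length as a further term, also chosen after seeing the values, and ran from -0.93 without knockout 3 to -0.09 without knockout 2 when 1 library was left out, with no call.

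**Figure D2:**
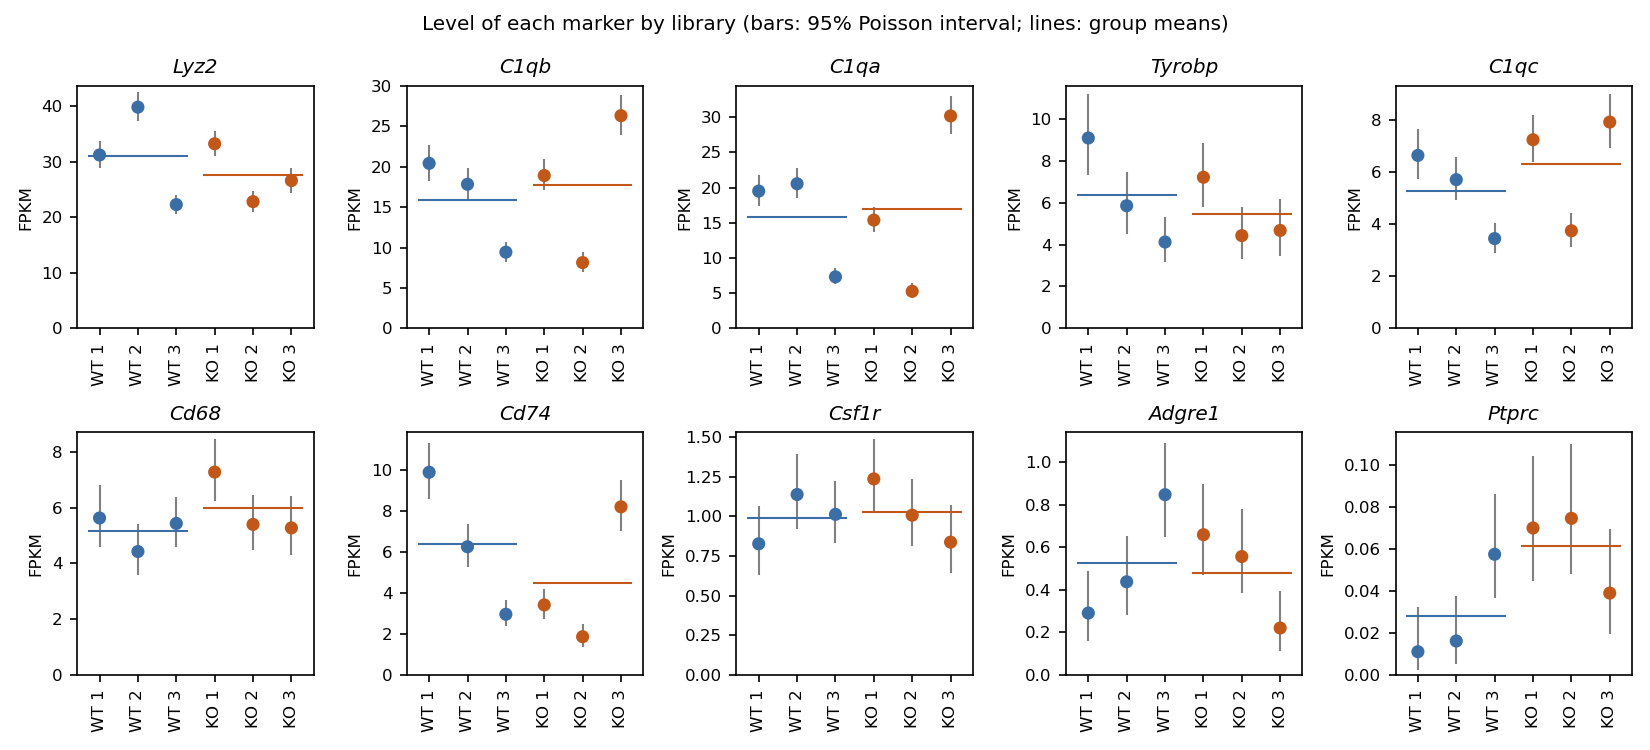
FPKM (y axis, from 0 in each panel) of the 10 markers in the 3 wild-type (WT, blue) and 3 knockout (KO, orange) libraries, with 95% Poisson intervals that cover counting error only and lines at the group means. C1qa runs from 5.26 to 30.2 FPKM within the knockout libraries, while Csf1r stays between 0.827 and 1.24 FPKM in all 6.

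Levels per kilobase were highest for Lyz2, C1qb and C1qa and lowest for the receptors Csf1r, Adgre1 and Ptprc. Lyz2 averaged 29.3 FPKM over the 6 libraries and stood above C1qb (16.8 FPKM) in 6 of 6, although their ranges overlapped. C1qb and C1qa (16.4 FPKM) did not differ beyond their spread, with C1qb higher in 4 of 6 libraries. Tyrobp, C1qc, Cd68 and Cd74 averaged 5.90, 5.77, 5.57 and 5.43 FPKM, and no neighbours in this order differed beyond their spread. Csf1r averaged 1.01 FPKM, and its whole range lay below that of Cd74. Adgre1 averaged 0.502 FPKM and was lower than Csf1r in 6 of 6 libraries. Ptprc averaged 0.0448 FPKM, 11.2 times below Adgre1, with ranges apart. By reads the gap was smaller, with 91 over all libraries against 182 for Adgre1. The FPKM of Ptprc divides by 18313 nt and that of Adgre1 by 3245 nt. The gap and the rank of Ptprc given below thus depend on the gene length used. The average of Lyz2 exceeded that of 89.5% of protein-coding genes with a read, that of C1qa 82.9%, that of Csf1r 40.7% and that of Ptprc 14.4%. All 10 markers together took 0.00803% to 0.0137% of the reads.

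The markers did not all rank the libraries alike. Of the 10, 6 were lowest in wild type 3 or knockout 2, while Ptprc and Csf1r were lowest in wild type 1, Cd68 in wild type 2 and Adgre1 in knockout 3. The summed C1q chains stood at 46.6, 44.1 and 20.2 FPKM in wild type 1 to 3 and at 41.5, 17.1 and 64.4 FPKM in knockout 1 to 3. The summed receptors Ptprc, Csf1r and Adgre1 stood at 1.13, 1.59 and 1.92 FPKM against 1.97, 1.64 and 1.10 FPKM. The library highest in C1q, knockout 3, was thus the lowest in the receptors by FPKM, but nearly level with wild type 1. The receptor sums of knockout 3 and wild type 1 rest on 85 and 77 reads, and by share of reads wild type 1 was the lowest. For 9 of the 10 markers, all but Csf1r, the Poisson intervals of the highest and the lowest library lay apart. The share of all genes with such a gap was not computed. Such spread was not particular to the markers. The median ratio of highest to lowest library was 2.25 for the 8 markers past the filter and 2.32 for all genes past it.

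Gene length and the mitochondrial share of reads, a sign of RNA or sample quality, varied across the same libraries. The receptors have exon lengths of 18313, 4885 and 3245 nt, and C1qa, C1qb, C1qc and Cd74 have 1040, 1088, 1931 and 1410 nt. Tyrobp, Cd68 and Lyz2 are as short, at 667, 1257 and 1316 nt. They did not share the C1q peak in knockout 3, with 4.67, 5.27 and 26.6 FPKM there, none of them their highest value. Tyrobp and Lyz2 did share the low end of the C1q chains. Their lowest values were 4.12 and 22.3 FPKM in wild type 3, followed by 4.43 and 22.8 FPKM in knockout 2. The slope of log2(FPKM + 1) deviations on log2 gene length, positive where long genes read high, was -0.13, -0.08 and 0.11 in wild type 1 to 3 and 0.04, 0.19 and -0.12 in knockout 1 to 3. Mitochondrial genes took 0.227%, 0.311% and 2.08% of reads against 1.52%, 4.19% and 0.146%. Wild type 3 and knockout 2, where C1q was low, had the highest mitochondrial shares. Wild type 1, wild type 2 and knockout 3, where C1q was high, had the lowest. Knockout 1 had a C1q level near those of wild type 1 and 2 and a mitochondrial share nearer that of wild type 3. In a fit that held the slope as a further term, a choice made after seeing the values, limma called 0 of the 10. The log2 fold changes were 0.43 for each of C1qa, C1qb and C1qc (adjusted p = 0.939, 0.925 and 0.925 by limma). Their unadjusted p was 0.029, 0.018 and 0.019 by limma, where 627 of the 12495 genes were under 0.05. Cd74 was at -0.07 (adjusted p = 0.977 by limma). With the slope term the standard error fell from 0.650 to 0.160 for C1qa and from 0.475 to 0.142 for C1qb. It fell from 0.333 to 0.143 for C1qc and from 0.530 to 0.142 for Cd74. The other markers had smaller falls, as from 0.291 to 0.204 for Lyz2. The slope was computed from the FPKM values of these same libraries, and the fall over all genes was not computed. These falls therefore cannot serve as a test of gene length, and the mitochondrial share was not a term. The part of length and RNA quality in the marker levels was not tested.

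**Figure D3:**
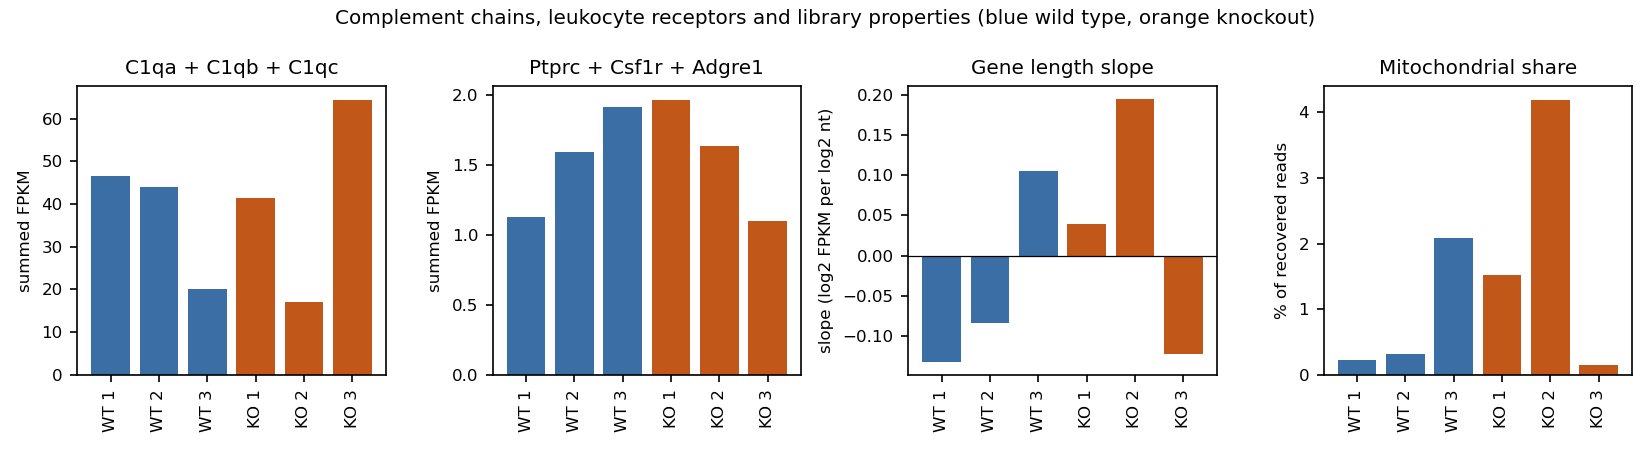
From left to right, bars give the summed FPKM of the C1q chains, the summed FPKM of Ptprc, Csf1r and Adgre1, the slope on gene length and the mitochondrial share of reads in each library. Knockout 3 holds the highest C1q sum (64.4 FPKM) and the lowest receptor sum (1.10 FPKM), the latter nearly level with wild type 1 (1.13 FPKM).

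The transcripts of the C1q chains did not keep a fixed ratio beyond counting error, although the protein holds its chains in equal number. C1qa over C1qc, as a ratio of FPKM, was 2.94, 3.60 and 2.13 in wild type 1 to 3 and 2.13, 1.41 and 3.82 in knockout 1 to 3. The exact 95% intervals of knockout 2 (1.07 to 1.84) and knockout 3 (3.26 to 4.48) lay apart. C1qb over C1qc varied less, from 2.18 in knockout 2 to 3.33 in knockout 3. C1qa over C1qb ran from 0.646 in knockout 2 to 1.15 in wild type 2. C1qa over Cd68 ran further, from 0.975 in knockout 2 to 5.72 in knockout 3. The order of the libraries in C1qa over C1qc, lowest in knockout 2 and highest in knockout 3, also has the steepest positive length slope at its low end and a negative slope at its high end. The most negative slope was that of wild type 1 (-0.13), whose ratio of 2.94 lay below that of wild type 2 (slope -0.08). A link between the slope and this ratio was not tested.

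**Figure D4:**
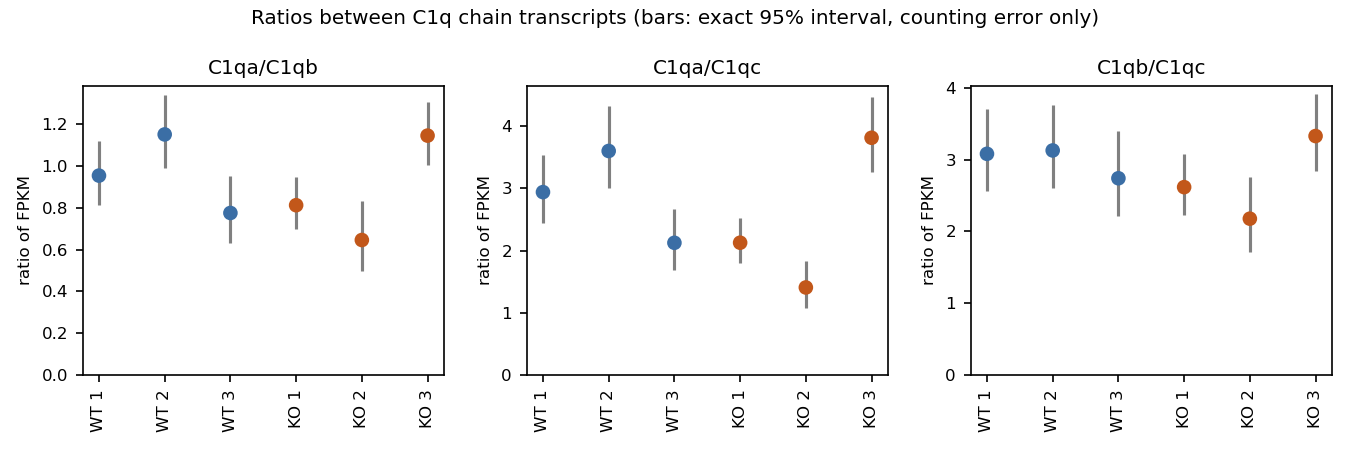
Ratios of FPKM between the C1q chain genes in each library (y axis, from 0), with exact 95% intervals from the reads that cover counting error only. C1qa over C1qc spans 1.41 to 3.82, and both ends are knockout libraries.

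Other genes of mononuclear phagocytes were mostly low. Of 25 genes of this list with a single feature in the tables, 10 passed the filter, with 6 positive and 4 negative, a median log2 fold change of 0.04 and 0 called. Apoe, a lipid carrier, stood at 61.9 to 386 FPKM and Lgmn, a lysosomal protease, at 73.4 to 226 FPKM, and many other cell types make both. Genes closer to the lineage were lower. Spi1, which encodes PU.1, stood at 0.284 to 0.988 FPKM, and the Fc receptor chain Fcer1g at 2.36 to 6.99 FPKM. Cx3cr1 held 33 reads over all libraries, the scavenger receptor Cd163 39, and the monocyte receptor Ccr2 20. Itgam is the name of 2 overlapping features, which held 56 and 0 reads, and was left out of the counts.

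Signals upstream and downstream of the receptors were measured too. Of 16 genes of CSF1R, TYROBP and Fc receptor signalling, 8 passed the filter, with 5 positive and 3 negative, a median of 0.07 and 0 called. Il34, a ligand of CSF1R, stood at 1.31 to 1.96 FPKM and Csf1, the other ligand, at 0.816 to 1.74 FPKM. Csf2 had 0 reads in every library, and Trem2, a receptor that signals through TYROBP, held 38 in all. Cd47, the signal that restrains phagocytosis, was at 21.6 to 33.0 FPKM and its macrophage receptor Sirpa at 4.56 to 6.65 FPKM, both also made by other cells.

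The MHC class II list, which Cd74 serves, had 4 of 12 genes past the filter, 1 positive and 3 negative, with a median of -0.32 and 0 called. H2-Ab1, a class II beta chain, stood at 3.17, 4.19 and 2.02 FPKM in wild type 1 to 3 and at 1.89, 0.835 and 2.82 FPKM in knockout 1 to 3 (log2 fold change -0.56, adjusted p = 0.993 by limma). H2-Eb1, the other class II chain past the filter, stood at 1.11 to 3.95 FPKM with a log2 fold change of -0.09 (adjusted p = 0.993 by limma). Like Cd74, both chains were lowest in knockout 2. The list's median also rests on Lgmn (-0.55) and the protease Ctss (0.13), which are not class II chains. Ciita, the class II transactivator, held 8 reads over all libraries. H2 genes are near-identical in places, so their split is uncertain.

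Partners of C1q in the complement system were measured as a list. Of 15 genes, 9 passed the filter, 6 positive and 3 negative, with a median of 0.13 and 0 called. Masp1, a protease of the lectin pathway, stood at 4.62 to 14.2 FPKM, and C1ra and C1s1, the proteases that C1q binds, at 2.86 to 5.40 and 1.31 to 3.41 FPKM.

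Markers of lymphocytes and granulocytes ranged from 0 reads to levels above those of several of the 10 markers. Among T and NK cell genes, Cd3e held 2 reads and Cd3d 1 read over all 6 libraries, and Cd8b1 held 0. Trbc2, a T cell receptor constant segment, nonetheless stood at 2.85 to 9.49 FPKM, and Trac at 0.576 to 4.65 FPKM. The kinase Lck, which acts downstream of the T cell receptor, stood at 1.13 to 2.12 FPKM and the NK cell receptor Klrb1c at 0.957 to 1.18 FPKM. None of 9 B cell and plasma cell genes passed the filter, and the highest of these, Ighm and Cd79a, stood at 0.627 to 1.45 and 0.30 to 1.32 FPKM. Among neutrophil genes, Ly6g and Elane held 0 reads, while S100a8 stood at 0.198 to 3.79 FPKM, S100a9 at 1.36 to 6.35 FPKM and Camp at 1.73 to 4.98 FPKM. Among mast cell and eosinophil genes Hdc, histidine decarboxylase, stood at 9.72 to 15.5 FPKM, whereas Cpa3 held 9 reads in all and Fcer1a 0. limma called 0 genes of these 4 lists, of which 4, 0, 3 and 1 passed the filter in the order given.

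**Figure D5:**
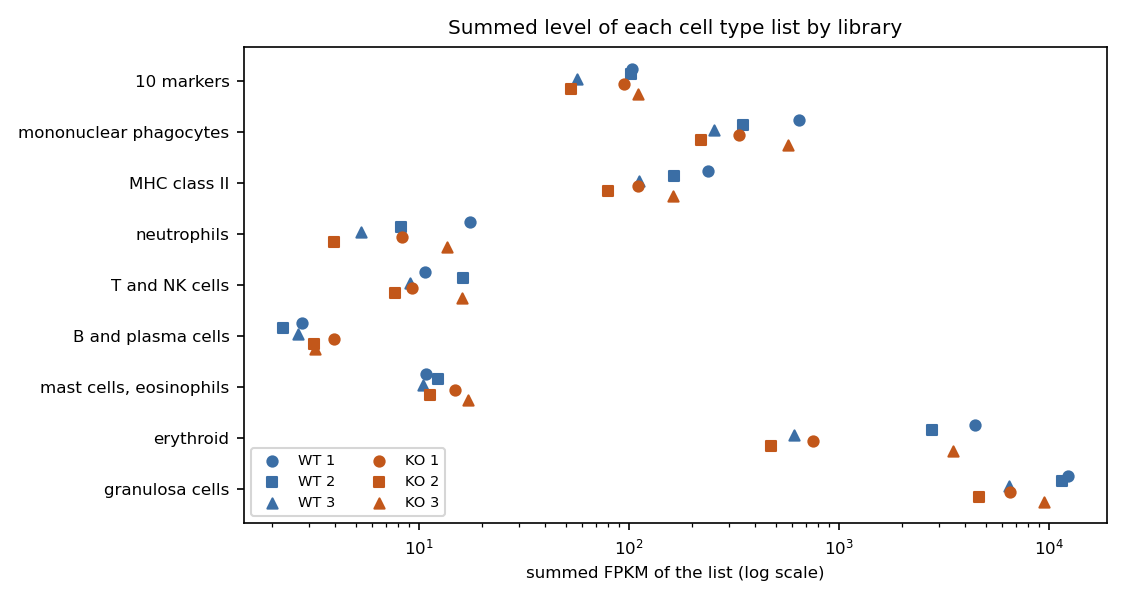
Summed FPKM of each list (x axis, log scale) in the 6 libraries, by wild type (WT, blue) and knockout (KO, orange). The 10 markers sum to 53.3 to 110.3 FPKM, and granulosa cell markers to 4678 to 12325 FPKM.

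Markers of blood and of other cells of the ovary varied between libraries as well. Erythroid genes, a sign of blood, summed to 4455, 2793 and 613 FPKM in wild type 1 to 3 and to 756, 474 and 3512 FPKM in knockout 1 to 3, with all 6 holding reads and Hba-a1 and Hbb-bs the most abundant. Near-identical globin genes share reads, so their split is uncertain. Wild type 1, wild type 2 and knockout 3 were high in both the erythroid and the C1q sum. Wild type 3 and knockout 2 were low in both. Knockout 1 had a C1q sum of 41.5 FPKM at a low erythroid sum, close to wild type 2 with 44.1 FPKM at a high one. Endothelial markers summed to 11.3 to 19.9 FPKM in the wild-type and 20.4 to 23.6 FPKM in the knockout libraries, with 7 of 8 past the filter and none at 0 reads. Of the most abundant, Egfl7, a secreted vascular factor, stood at 2.29 to 9.34 FPKM over all libraries. Eng, an endothelial co-receptor, stood at 4.21, 2.03 and 3.88 FPKM in wild type 1 to 3 and at 5.18, 5.03 and 7.54 FPKM in knockout 1 to 3. Its ranges lay apart (adjusted p = 0.993 by limma). Ranges lay apart in 4 of the 99 list genes past the filter, near the 3.53% of all genes past it. Stromal, pericyte and smooth muscle markers summed to 62.5 to 120 FPKM and 89.8 to 114 FPKM, with 9 of 12 past the filter and none at 0. Of these, Acta2 stood at 27.2 to 83.2 FPKM and Col3a1 at 8.52 to 24.4 FPKM. Theca markers summed to 72.8 to 149 FPKM and 85.9 to 112 FPKM, with 5 of 6 past the filter. Oocyte markers summed to 269 to 490 FPKM and 244 to 421 FPKM, with 9 of 9. The most abundant were Lhcgr and Cyp17a1 of the theca list and Gdf9 and Zp3 of the oocyte list. Granulosa cells may themselves add to the theca sum, as through Lhcgr, so it is not a measure of theca content. Of the genes past the filter, 0 of 5 erythroid genes were positive (median log2 fold change -0.88), 6 of 7 endothelial (0.13), 9 of 9 stromal (0.49), 4 of 5 theca (0.22) and 1 of 9 oocyte genes (-0.30), against -0.04 over all genes. limma called 0 genes of these 5 lists. The part of blood or other cells in the marker levels was not tested.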

How the data were processed

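RNA of 6 granulosa cell libraries, 3 per labelled genotype, went through TruSeq RNA library preparation, per the labels' protocols. Per the submitters' processing notes, HISAT2 2.0.5 and mm10 were used. They give no counter, and the annotation release and FPKM scaling also were not given in the sources used here. The authors deposited 1 table of FPKM per library. Multiplied by gene length, 100% of nonzero values were whole multiples of a library's smallest step, to within 0.01 reads, which gave back the reads. The authors' scaling totals were 0.894 to 1.12 times these reads. Libraries of the same label differed beyond sampling noise by chi-square over genes with at least 20 reads, so none was taken for a copy.

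Groups came from the sample titles. limma 3.58.1 (R 4.3.3) was fitted to log2(FPKM + 1) with a trend and genotype as the only term, on genes over 1 FPKM in at least 3 libraries and again without that filter, two-sided, with Benjamini-Hochberg adjustment over all genes tested and a threshold of 0.05. On simulated counts with a dispersion of 0.05 limma found 36 of 100 genes set to a 2-fold change and 100 of 100 set to 4-fold among 12535 tested, and called 14 others. The simulated libraries varied independently around 1 mean per gene and lacked the main axis of the real libraries. These rates therefore cannot be taken as the power of the comparison here. Poisson and binomial intervals are exact, at 95%, and cover counting error only. Alternatives were pseudocounts, filters, scaling, limma-voom with TMM factors, a replicate block, only protein-coding genes, and fits without single libraries.

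The members and lists were chosen with earlier results of these data known. Named genes were the 10 markers, Gm12840, the 2 most abundant members of each list and the 5 genes nearest in profile to the summed markers. Other genes were chosen after their values were seen, and 1 result under this rule is not reported here. Promoter windows are from RefSeq on GRCm38.p6. Figures were drawn with matplotlib 3.10.9.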

Additional observations from a re-analysis of the deposited data

How the results depend on the processing

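No marker passed the threshold under any alternative set at the outset. The count of genes called past the filter, 0, was 1 with the length slope as a covariate and 3451 (1409 higher, 2042 lower) with replicate 3 of both groups left out, both chosen after seeing the values. The latter sets libraries from opposite ends of the main axis against each other, so its calls cannot be told apart from that axis. There the number of markers called was 1, Cd74. Of 148 marker values under the alternatives set at the outset, 134 kept their direction and 14 turned, none of them called. C1qa turned to 0.013 with library totals and to 0.43 with the length slope, which turned Csf1r to -0.0037. With replicate 3 of both groups left out, Adgre1 turned to 0.24, C1qb to -0.57 and C1qc to -0.20. Leaving out 1 library gave -0.61 to 0.55 for C1qa, -0.26 to 0.53 for C1qb, -0.024 to 0.49 for C1qc, -0.15 to 0.11 for Adgre1, -0.050 to 0.092 for Csf1r, -0.36 to 0.044 for Lyz2 and -0.39 to 0.094 for Tyrobp. The cause of these turns was not tested. The knockout minus wild type difference of Gm12840 was -0.0901 FPKM and ran from -0.401 to 0.363. With the replicate block 0 genes and 0 markers were called, as without it. Deviations of libraries of the same number had correlations of -0.42, -0.67 and -0.89, and 0 of 6 correlated best with its own number, so the numbers gave no sign of pairing. Scaling by library totals put the median over all genes at 0.04 in place of -0.04. Depth limits Ptprc most, with 91 reads over all libraries.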

Other observations

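Lyve1, a hyaluronan receptor of lymphatic endothelium and of some tissue macrophages, was low in wild type 1, wild type 2 and knockout 3. In these libraries the summed C1q chains were highest. Lyve1 was highest in knockout 2 and wild type 3, where the summed C1q chains were lowest. Only in knockout 1 were both high. Lyve1 stood at 6.05, 9.47 and 46.3 FPKM in wild type 1 to 3 and at 32.0, 62.6 and 10.1 FPKM in knockout 1 to 3. The endothelial cadherin Cdh5 had the same 3 libraries low, at 1.51, 1.70 and 7.22 FPKM against 6.30, 9.06 and 1.67 FPKM. Both genes were chosen after their values were seen. limma called neither (adjusted p = 0.993 for each).

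Chemoattractants and their receptors had 6 of 18 genes past the filter, 4 positive and 2 negative, with a median log2 fold change of 0.12 and 0 called. Cxcr4, a chemokine receptor that other cells also make, stood at 85.8 to 182 FPKM. Cxcl1, which draws neutrophils, stood at 10.02, 9.72 and 11.4 FPKM in wild type 1 to 3 and at 36.9, 16.4 and 4.75 FPKM in knockout 1 to 3, so both its highest and its lowest value were in knockout libraries. Ccl20 and Cxcl15 had 0 reads. Of 12 lysosome genes shared with other cells, 2 were positive and 10 negative, with a median of -0.20 and 0 called, and Ctsl stood at 591 to 923 FPKM.

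The 5 genes nearest to the profile of the summed markers, by root mean square distance of centred log2(FPKM + 1) over 6 libraries, were Ltc4s at 0.052, Zbed5 at 0.058, Cep19 at 0.085, Alkbh6 at 0.087 and the pseudogene Gm15421 at 0.088. For Ltc4s, at 0.108 to 1.20 FPKM on 2 to 19 reads, the added constant of 1 hides most of the ratio. Its highest library was 11.1 times its lowest, against 2.07 times for the summed markers. None of the 5 is on a leukocyte list used here, but the lists do not hold every leukocyte gene. Absence from them does not say which cells make these 5.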
